A study of Homo sapiens with 20 samples.

Results

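The genes described here are 9 that carry out or control HLA class I antigen presentation: the heavy chains HLA-B, HLA-C, HLA-E and HLA-F, the light chain B2M, the peptide transporter subunits TAP1 and TAP2, the loading factor TAPBP (tapasin) and the transactivator NLRC5. They were taken by symbol from a table of read counts for 27864 Entrez genes, of which 27740 were matched to a symbol, and all 9 were found and all 9 passed the filter on low counts. All cells were of the line SUM159PT, derived from a triple-negative breast cancer, and were sequenced as 20 mRNA libraries in 7 groups. The labelled KOs pool was edited at the transcription start site of NNMT with 1 sgRNA, and the KOd pool with 2 sgRNAs that remove its exon 1. NNMT is the enzyme that methylates nicotinamide. Each pool is a mixture of several clones, so the data describe these mixtures and not single clones. Tumorsphere groups (3D) of labelled KOs, KOd and unedited wt cells held 3 libraries each. These spheres were grown in ultra-low attachment plates through a primary and a secondary round of 6 days in DMEM:F12 with B27, EGF at 20 ng/mL and basic FGF at 20 ng/mL. Adherent groups (2D) of labelled KOs, KOd and wt cells, again 3 libraries each, were grown to 80% confluency in Ham's F12 medium that held fetal calf serum at 5%, insulin at 5 µg/mL and hydrocortisone at 1 µg/mL. In the seventh group, labelled Rosens, 2 libraries came from adherent wt cells changed to the tumorsphere medium at 50% confluency and collected at 80%. RNA came from the RNeasy Micro kit for tumorspheres and the RNeasy Plus Mini kit for the 80% confluent adherent cells, so culture format, medium (outside the Rosens group) and RNA kit cannot be told apart in the 3D against 2D comparisons.

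Class I molecules show peptides from inside the cell to CD8+ T cells and, for HLA-E, to receptors of natural killer cells. Peptides cut by the proteasome are pumped into the endoplasmic reticulum by the TAP1-TAP2 transporter and loaded onto a heavy chain paired with B2M, with tapasin bridging transporter and heavy chain. NLRC5 drives class I genes from a conserved promoter module bound by the RFX, CREB/ATF and NF-Y factors, and interferons act in part through IRF1. Low class I expression is a known way for breast and other cancers to escape T cells.

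NNMT itself averaged 84.8 ± 1.75 CPM (read count scaled for library size with TMM factors, mean ± SD) in labelled KOs tumorspheres, 5.15 ± 0.497 in KOd tumorspheres and 98.4 ± 27.5 in wt tumorspheres (n = 3 each). In 2D it averaged 106 ± 27.6 CPM in labelled KOs cells, 4.55 ± 0.139 in KOd cells and 117 ± 13.3 in wt cells (n = 3 each). The NNMT transcript was thus low in both KOd groups and did not check the KOs label, and every direction given below for that pool is of the libraries labelled KOs. These libraries also held 37316513 to 43744817 reads, against at most 32016875 in the others, and ribosomal RNA took 0.926% to 2.70% of their reads, against 2.82% to 8.46%. In 3 groups 1 library stood apart by the root mean square difference in log2 CPM. Replicate A of labelled KOs 2D differed by 0.731 and 0.83 from the others, which differed by 0.464 from each other. For replicate C of KOd 3D the values were 0.476 and 0.476, beside 0.297, and for replicate C of wt 3D they were 0.595 and 0.614, beside 0.308. The line's markers were in place: vimentin (VIM) lay between 2537 and 5967 CPM and CD44 between 409.8 and 1282 CPM in every library, and the oestrogen receptor ESR1 reached at most 0.315 CPM.

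The promoters of 7 of the 9 genes were present among RefSeq windows (GRCh38.p14, 250 bases before to 50 after the annotated start): HLA-B, HLA-C, HLA-F, B2M, TAP1, TAP2 and TAPBP. Of these, 5 are printed because they differ in the letters they hold and because HLA-B, B2M, TAP1 and TAPBP rose in wt tumorspheres while TAP2 fell. Capitals mark CCAAT (the core letters of the NF-Y box), TGACG (the CRE half-site of CREB/ATF factors), GAAA followed after any 2 bases by GAAA (interferon-response letters) and GGG, any 2 bases, T, any 1 base and CCC (kappaB letters), searched on both strands. Adjoining or overlapping matches run together in capitals. Only exact matches were marked and counted, so a window without a match may still hold a site with other letters.
HLA-B chr6:31357130-31357429 (minus strand): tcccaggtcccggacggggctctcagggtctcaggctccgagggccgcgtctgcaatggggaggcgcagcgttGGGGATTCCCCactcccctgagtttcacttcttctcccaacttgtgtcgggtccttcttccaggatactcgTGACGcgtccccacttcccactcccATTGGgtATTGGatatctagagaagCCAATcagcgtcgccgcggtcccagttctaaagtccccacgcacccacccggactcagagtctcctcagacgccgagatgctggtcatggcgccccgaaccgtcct
B2M chr15:44711267-44711566 (plus strand): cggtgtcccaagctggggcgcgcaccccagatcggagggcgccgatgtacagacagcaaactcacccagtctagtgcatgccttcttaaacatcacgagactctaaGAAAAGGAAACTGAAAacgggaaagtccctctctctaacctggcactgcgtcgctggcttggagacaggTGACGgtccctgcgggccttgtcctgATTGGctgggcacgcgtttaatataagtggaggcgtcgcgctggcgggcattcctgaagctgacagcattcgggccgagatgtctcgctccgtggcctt
TAP1 chr6:32853655-32853954 (minus strand): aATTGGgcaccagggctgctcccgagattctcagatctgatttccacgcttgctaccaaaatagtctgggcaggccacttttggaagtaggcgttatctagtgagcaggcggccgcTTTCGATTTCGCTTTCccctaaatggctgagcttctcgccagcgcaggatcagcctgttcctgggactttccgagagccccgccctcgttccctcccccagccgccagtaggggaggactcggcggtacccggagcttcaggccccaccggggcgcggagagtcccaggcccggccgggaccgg
TAP2 chr6:32838690-32838989 (minus strand): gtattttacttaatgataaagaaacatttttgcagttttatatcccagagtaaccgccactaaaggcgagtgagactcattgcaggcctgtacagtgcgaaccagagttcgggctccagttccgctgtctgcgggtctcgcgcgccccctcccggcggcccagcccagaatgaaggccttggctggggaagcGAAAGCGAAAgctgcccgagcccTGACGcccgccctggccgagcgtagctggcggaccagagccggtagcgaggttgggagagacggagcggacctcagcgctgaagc
TAPBP chr6:33314029-33314328 (minus strand): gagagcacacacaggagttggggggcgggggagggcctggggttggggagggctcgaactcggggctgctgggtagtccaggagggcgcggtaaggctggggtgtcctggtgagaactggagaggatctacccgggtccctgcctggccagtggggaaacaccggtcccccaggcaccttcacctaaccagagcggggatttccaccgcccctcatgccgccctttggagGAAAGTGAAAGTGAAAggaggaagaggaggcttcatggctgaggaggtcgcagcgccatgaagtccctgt
The HLA-B window, on chromosome 6, held kappaB letters at -177 and -176, TGACG at -106 and CCAAT letters at -81, -74 and -56 from the start (first base of each match). In the B2M window, on chromosome 15, these letters of the interferon-response element matched at -144 and at -138 in overlapping letters, with TGACG at -75 and CCAAT letters at -49. TAP1 held interferon-response letters at -134 and -128 on the minus motif strand and CCAAT letters at -249, and a second TAP1 window (chr6:32852712-32853011) held none of the 4 motifs. TAP2 held interferon-response letters at -58 and TGACG at -35, and TAPBP held interferon-response letters at -20 and -14. Of the windows not printed, HLA-C held TGACG at -105 and CCAAT letters at -192, -95, -80 and -56. HLA-F held interferon-response letters at -156 and CCAAT letters at -82 and -57. Among 35116 promoter windows of this length, 34.6% held CCAAT, 24.6% TGACG, 3.57% the interferon-response letters and 7.24% the kappaB letters. The interferon-response letters were in the windows of TAP2, which fell in wt and KOd tumorspheres, and of HLA-F, B2M, TAP1 and TAPBP, which rose in both.

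**Figure D1:**
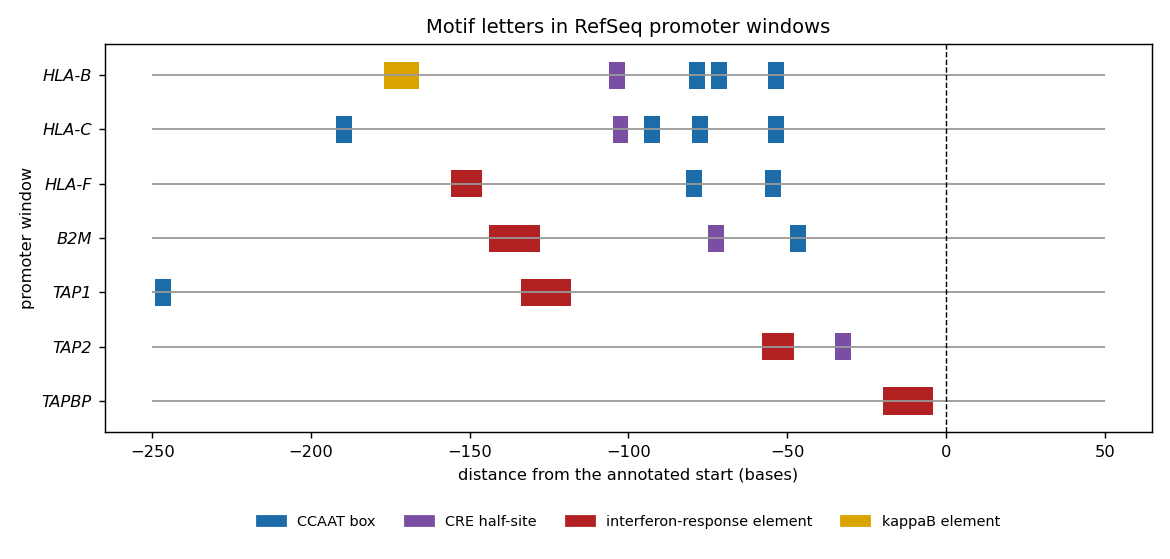
Matches to 4 motifs in the RefSeq promoter windows of 7 class I presentation genes, drawn by distance from the annotated start in bases (dashed line at 0), with 1 grey line per gene and coloured bars for matches on either strand. For TAP1 the window with matches is shown. Only exact matches are drawn, so sites with other letters are not shown. Interferon-response letters lie at -156 in HLA-F, at -58 in TAP2 and at -20 and -14 in TAPBP. Exact kappaB letters lie in HLA-B alone among these 7.

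Tumorsphere culture went with more class I presentation mRNA in all 3 cell populations. In the libraries labelled KOs 7 of the 9 genes rose and none fell, while in KOd and in wt cells all but TAP2 rose, that is 8 genes, and TAP2 fell. Of all 16323 genes tested, 32.9% rose and 32.1% fell in labelled KOs, 35.2% rose and 31.2% fell in KOd, and 33.3% rose and 30.4% fell in wt (edgeR quasi-likelihood test, Benjamini-Hochberg adjusted p under 0.05). The median log2 fold change of the 9 genes was 1.05 in labelled KOs, 1.25 in KOd and 1.22 in wt, beside 0.02, 0.07 and 0.04 for all genes tested. Without the 3 libraries that stood apart, a choice made after seeing the data, 9 rose and none fell in labelled KOs (40.2% and 35.6% of all genes), 8 rose and 1 fell in KOd (38.7% and 35.6%), and 8 rose and 1 fell in wt (36.1% and 34.4%). In bulk RNA, a change in the share of cells that express a gene and a change in its mRNA per cell cannot be told apart. The labels do not say that replicates were separate cultures, so a p-value here reflects only how much these libraries spread.

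**Figure D2:**
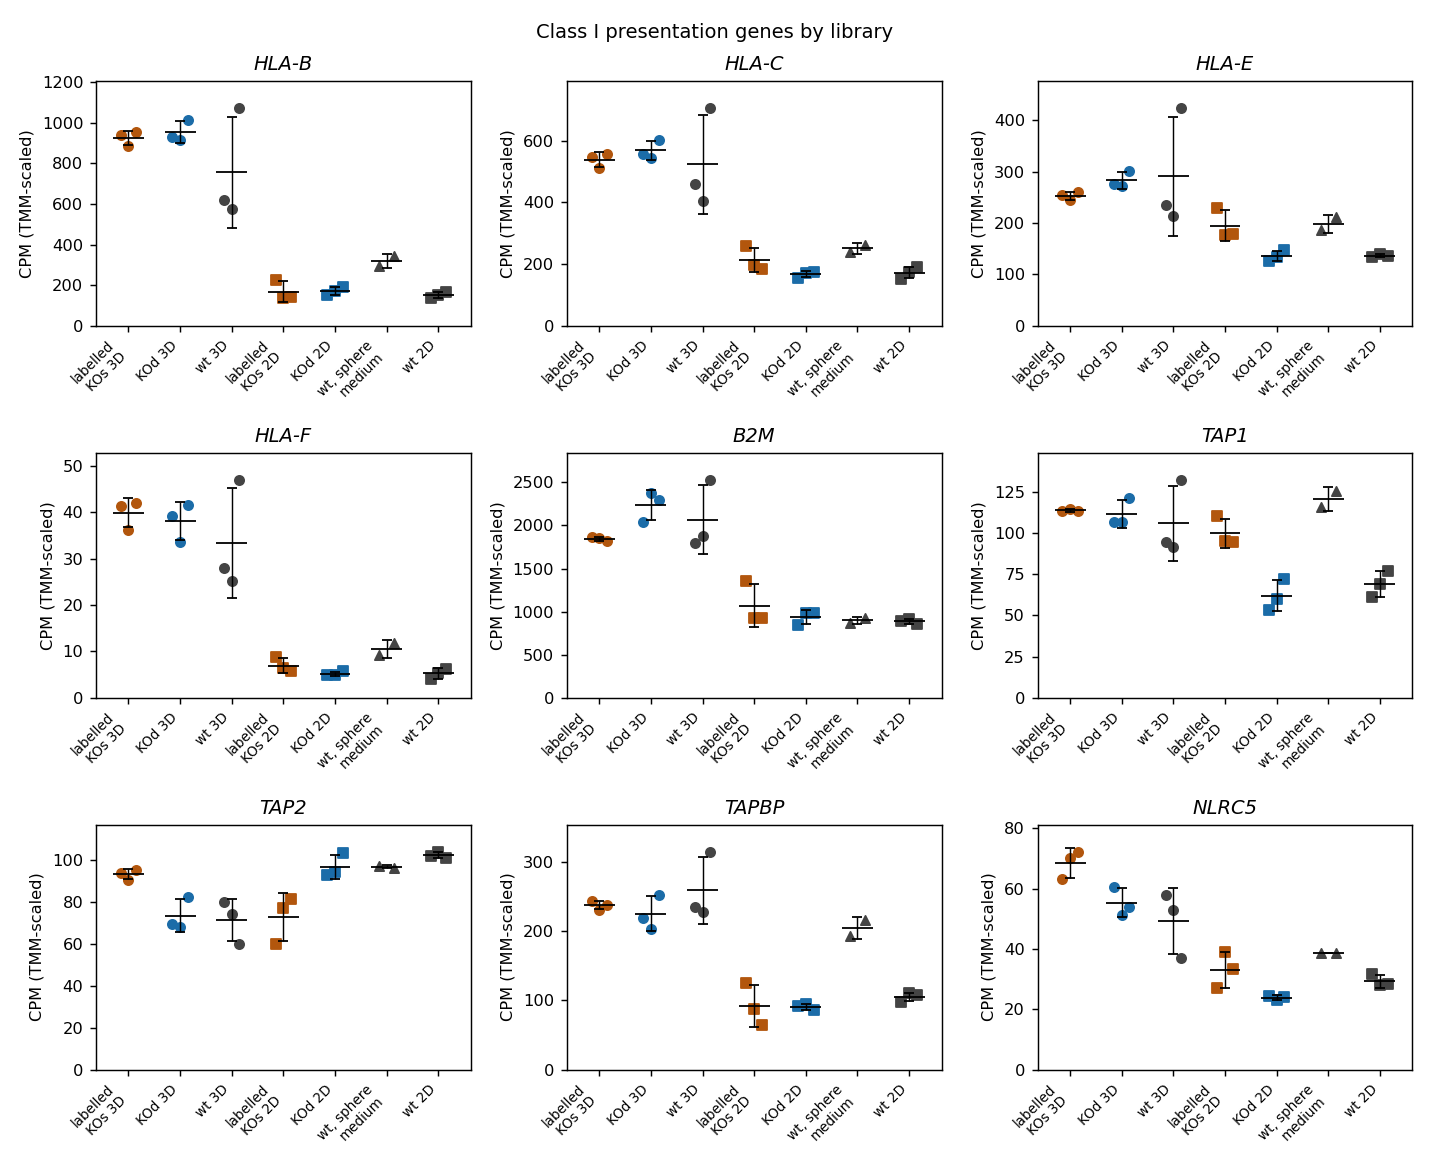
CPM (TMM-scaled) of each gene in the 20 libraries, 1 panel per gene, with circles for 3D, squares for 2D and triangles for adherent wt cells in tumorsphere medium; the long bar is the group mean and the whiskers are 1 SD. HLA-B lies between 577 and 1071 CPM in all 9 tumorsphere libraries and between 136 and 227 CPM in the 9 libraries grown in 2D medium, while TAP2 is lower in wt tumorspheres (60.1 to 80.0 CPM) than in wt 2D cells (101 to 104 CPM).

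HLA-B (Entrez 3106, chromosome 6, 31353875 to 31357179 in GRCh38.p14) is a classical heavy chain that presents peptides to CD8+ T cells. It was measured at 937, 885 and 952 CPM in labelled KOs tumorspheres, 931, 916 and 1014 in KOd tumorspheres and 619, 577 and 1071 in wt tumorspheres. The corresponding levels were 227, 139 and 139.8 CPM in labelled KOs 2D cells, 154, 173 and 192 in KOd 2D cells, 296 and 342 in adherent wt cells in tumorsphere medium and 136, 151 and 166 in wt 2D cells. Every tumorsphere library lay above every adherent library, and the medium group lay between them. The log2 fold change (± approximate SE) of tumorspheres against 2D was 2.46 ± 0.21 in labelled KOs, 2.46 ± 0.21 in KOd and 2.32 ± 0.21 in wt (adjusted p = 3.1e-08, 1.7e-08 and 4.3e-08). In wt this is a fold of 5.01.

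HLA-C (Entrez 3107, chromosome 6, 31268749 to 31272092), the classical heavy chain that is also the main ligand of the killer-cell immunoglobulin-like receptors, stood at 549, 512 and 557 CPM in labelled KOs tumorspheres, 559, 544 and 604 in KOd tumorspheres and 459.9, 404 and 706 in wt tumorspheres. It stood at 258, 199 and 186 CPM in labelled KOs 2D cells, 157, 173 and 174 in KOd 2D cells, 239 and 264 in adherent wt cells in tumorsphere medium and 153, 175 and 190.1 in wt 2D cells. Tumorsphere and adherent libraries again did not overlap. Its log2 fold change was 1.33 ± 0.16 in labelled KOs, 1.76 ± 0.16 in KOd and 1.60 ± 0.16 in wt (adjusted p = 1.6e-06, 4.7e-08 and 1.8e-07).

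HLA-F (Entrez 3134, chromosome 6, 29723434 to 29738532), a non-classical heavy chain of low abundance, had the largest fitted rise of the 9 genes in each population. Its levels were 41.5, 36.3 and 42.1 CPM in labelled KOs tumorspheres, 39.3, 33.7 and 41.6 in KOd tumorspheres and 28.0, 25.1 and 47.0 in wt tumorspheres. In adherent cells they were 8.72, 6.36 and 5.71 CPM in labelled KOs 2D cells, 4.80, 4.82 and 5.73 in KOd 2D cells, 9.15 and 11.9 in adherent wt cells in tumorsphere medium and 4.03, 5.44 and 6.28 in wt 2D cells, and the lowest of these libraries held 110 reads. No tumorsphere library overlapped an adherent one. The log2 fold change was 2.52 ± 0.22 in labelled KOs, 2.90 ± 0.23 in KOd and 2.67 ± 0.23 in wt (adjusted p = 3.6e-08, 5.8e-09 and 2e-08), a fold of 5.75, 7.46 and 6.36.

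HLA-E (Entrez 3133, chromosome 6, 30489509 to 30494194), the heavy chain read by the CD94-NKG2 receptors of natural killer cells, moved less. It was at 255, 244 and 260.3 CPM in labelled KOs tumorspheres, 276, 272 and 302 in KOd tumorspheres and 235, 214 and 423 in wt tumorspheres. Its adherent levels were 229.8, 177 and 178 CPM in labelled KOs 2D cells, 127, 133 and 148 in KOd 2D cells, 186 and 211 in adherent wt cells in tumorsphere medium and 135, 139.5 and 136 in wt 2D cells. It rose by 1.06 ± 0.18, adjusted p = 5.3e-05 on the log2 scale in KOd and by 1.09 ± 0.18, adjusted p = 4.3e-05 in wt. In labelled KOs the log2 fold change of 0.37 ± 0.18, adjusted p = 0.072 did not pass the test, although the 3 tumorsphere libraries lay above the 3 adherent ones. Without the 3 libraries that stood apart it was 0.51 in labelled KOs and passed (adjusted p = 2.1e-06).

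B2M (Entrez 567, chromosome 15, 44711517 to 44718145) encodes the light chain that pairs with class I heavy chains. It was the most abundant of the 9 per base of gene length in every group. Its levels were 1862, 1850 and 1818 CPM in labelled KOs tumorspheres, 2040, 2379 and 2291 in KOd tumorspheres and 1799, 1881 and 2527 in wt tumorspheres. In adherent cells they were 1359, 923 and 922 CPM in labelled KOs 2D cells, 846, 983 and 986 in KOd 2D cells, 868 and 930.0 in adherent wt cells in tumorsphere medium and 893, 910.4 and 859 in wt 2D cells. All 9 tumorsphere libraries exceeded all adherent ones, and the adherent wt groups overlapped. The log2 fold change was 0.79 ± 0.14, adjusted p = 0.00011 in labelled KOs, 1.25 ± 0.14, adjusted p = 5.9e-07 in KOd and 1.22 ± 0.14, adjusted p = 9.8e-07 in wt.

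The transporter subunits went separate ways in wt and KOd. TAP1 (Entrez 6890, chromosome 6, 32845209 to 32853704) was measured at 114, 115 and 113 CPM in labelled KOs tumorspheres, 107, 107 and 122 in KOd tumorspheres and 94.5, 91.5 and 132 in wt tumorspheres. In adherent cells it was at 110.3, 95.5 and 94.5 CPM in labelled KOs 2D cells, 53.6, 60.2 and 72.2 in KOd 2D cells, 116 and 126 in adherent wt cells in tumorsphere medium and 61.0, 69.5 and 76.9 in wt 2D cells. The 2 Rosens libraries overlapped with no other group but wt 3D and KOd 3D. TAP1 rose by 0.85 ± 0.13, adjusted p = 2.3e-05 on the log2 scale in KOd tumorspheres and by 0.62 ± 0.13, adjusted p = 0.00057 in wt tumorspheres, while the change of 0.19 ± 0.13, adjusted p = 0.22 in labelled KOs did not pass. That value was 0.27 and passed without the 3 libraries that stood apart (adjusted p = 0.016).

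TAP2 (Entrez 6891, chromosome 6, 32821831 to 32838739), which with TAP1 forms the transport channel, was at 93.7, 90.7 and 95.5 CPM in labelled KOs tumorspheres, 69.7, 68.3 and 82.5 in KOd tumorspheres and 80.0, 74.1 and 60.1 in wt tumorspheres. It was at 60.0, 77.0 and 81.5 CPM in labelled KOs 2D cells, 92.7, 94.1 and 103 in KOd 2D cells, 97.3 and 96.3 in adherent wt cells in tumorsphere medium and 102, 104 and 101 in wt 2D cells. The tumorsphere libraries lay below the 2D libraries in KOd and in wt, and above them in labelled KOs. Accordingly TAP2 fell in KOd (-0.40 ± 0.11, adjusted p = 0.0046) and in wt (-0.52 ± 0.11, adjusted p = 0.00059) and rose in labelled KOs (0.36 ± 0.11, adjusted p = 0.0094).

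TAPBP (Entrez 6892, chromosome 6, 33299694 to 33314078), the tapasin gene, was at 244, 232 and 238 CPM in labelled KOs tumorspheres, 219, 204 and 253 in KOd tumorspheres and 235, 228 and 315 in wt tumorspheres. In adherent cells it was at 125, 87.3 and 64.0 CPM in labelled KOs 2D cells, 91.8, 94.4 and 85.8 in KOd 2D cells, 193 and 217 in adherent wt cells in tumorsphere medium and 97.7, 110.1 and 107 in wt 2D cells. The Rosens libraries stood above all 2D libraries. TAPBP rose by 1.37 ± 0.17, adjusted p = 2.7e-06 in labelled KOs, by 1.31 ± 0.17, adjusted p = 3.4e-06 in KOd and by 1.30 ± 0.17, adjusted p = 4.3e-06 in wt on the log2 scale.

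NLRC5 (Entrez 84166, chromosome 16, 56989557 to 57083520), the class I transactivator, was at 63.0, 70.2 and 72.2 CPM in labelled KOs tumorspheres, 60.6, 51.3 and 53.9 in KOd tumorspheres and 57.8, 52.8 and 36.8 in wt tumorspheres. Its adherent levels were 27.1, 39.0 and 33.2 CPM in labelled KOs 2D cells, 24.4, 23.0 and 24.1 in KOd 2D cells, 38.6 and 38.6 in adherent wt cells in tumorsphere medium and 31.7, 27.9 and 28.2 in wt 2D cells. Within each population the tumorsphere libraries lay above the 2D libraries. The log2 fold change was 1.05 ± 0.14, adjusted p = 4.8e-06 in labelled KOs, 1.21 ± 0.14, adjusted p = 8.3e-07 in KOd and 0.75 ± 0.14, adjusted p = 0.00018 in wt.

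Libraries of one group did not move all 9 genes in 1 direction. Replicate C of wt 3D held the highest HLA-B, HLA-C, HLA-E, HLA-F, B2M, TAP1 and TAPBP levels of its group and the lowest TAP2 and NLRC5 levels. Replicate A of labelled KOs 2D showed the same order within its own group. These are 2 of the 3 libraries that stood apart. In the HLA-E panel, for example, wt 3D replicate C reached 423 CPM where the other wt tumorspheres had 235 and 214 CPM. Without this library the wt 3D against 2D log2 fold changes were 1.99 for HLA-B, 0.72 for HLA-E and 0.92 for NLRC5, and all 9 genes kept their calls, where 32.2% of all genes rose and 30.2% fell.

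**Figure D3:**
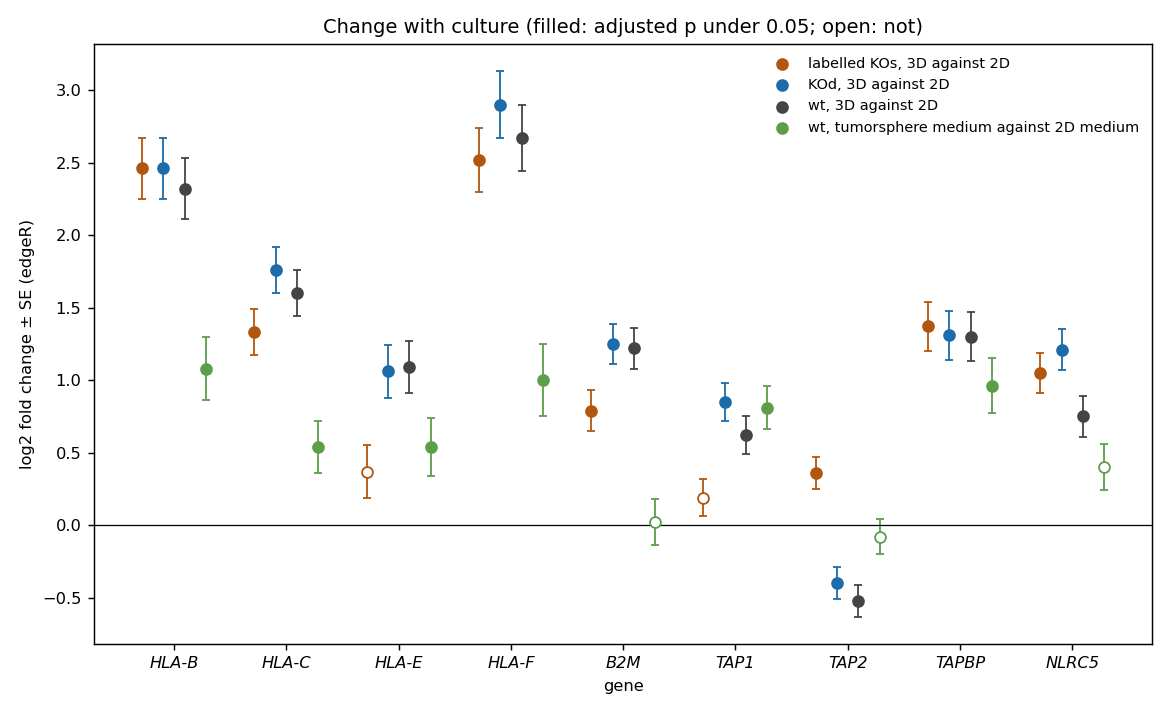
Log2 fold change (edgeR) ± approximate SE of each gene for tumorspheres against 2D cells in labelled KOs, KOd and wt, and for adherent wt cells in tumorsphere medium against wt 2D cells. Filled points have an adjusted p under 0.05. HLA-B and HLA-F lie highest in each 3D comparison (2.32 to 2.90), TAP2 lies at 0.36 in labelled KOs, -0.40 in KOd and -0.52 in wt, and B2M in the medium comparison lies at 0.02.

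Compared per base of gene length (RPKM from the deposited lengths), the make-up of the class I transcripts changed with culture. The summed level of the 4 heavy chains averaged 1033 ± 41.7 RPKM in labelled KOs, 1080 ± 60.3 in KOd and 928 ± 321 in wt tumorspheres, against 317 ± 67.7, 267 ± 21.2 and 257 ± 21.9 in the same populations in 2D (mean ± SD, n = 3 each). HLA-B made up 55.6%, 54.8% and 50.4% of that sum in labelled KOs, KOd and wt tumorspheres and 32.6%, 40.1% and 36.4% in 2D. The light chain B2M stood at 1.81, 2.10 and 2.34 times the summed heavy chains in labelled KOs, KOd and wt tumorspheres, and at 3.40, 3.55 and 3.52 times in 2D. TAP1 stood at 2.42, 3.01 and 3.04 times TAP2 in labelled KOs, KOd and wt tumorspheres, against 2.79, 1.26 and 1.34 times in 2D. By library this TAP1 ratio ran from 2.34 to 4.35 in wt tumorspheres and from 2.29 to 3.63 in labelled KOs 2D cells. The labelled KOs tumorspheres (2.35 to 2.50) lay within the range of their 2D libraries. In the Rosens group (n = 2) the HLA-B share was 45.3%, the B2M ratio 2.09 and the TAP1 to TAP2 ratio 2.47. These ratios were not tested. HLA-B shares in the tumorsphere libraries of each population lay above those of its 2D libraries, and the B2M ratios lay below.

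**Figure D4:**
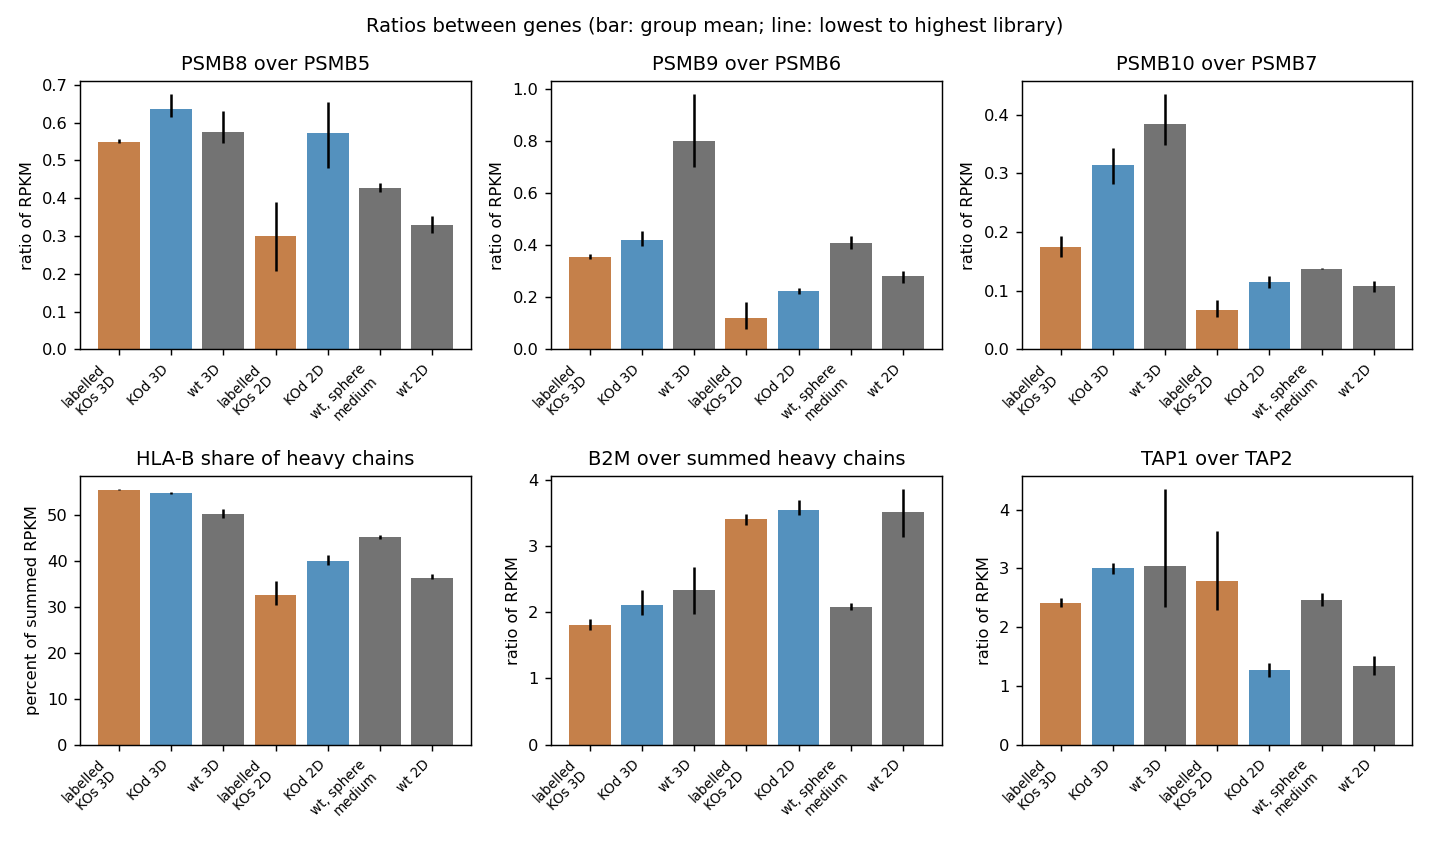
Ratios of RPKM between genes in the 7 groups, as group means (bars, from 0) with a line over the lowest to highest library. The upper panels set the immunoproteasome subunits PSMB8, PSMB9 and PSMB10 against the constitutive subunits they replace, and the lower panels show the HLA-B share of the 4 heavy chains, B2M over their sum, and TAP1 over TAP2. The HLA-B share is 50.4% to 55.6% in the 3D groups and 32.6% to 40.1% in the 2D groups.

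The Rosens group asks how much of the class I change was seen when cells still attached were changed to tumorsphere medium. Against wt 2D, 6 of the 9 genes rose and none fell, where 15.6% of all genes rose and 16.4% fell. HLA-B (1.08 ± 0.22, adjusted p = 0.0012), HLA-F (1.00 ± 0.25, adjusted p = 0.0049), TAPBP (0.96 ± 0.19, adjusted p = 0.00081) and TAP1 (0.81 ± 0.15, adjusted p = 0.00043) changed most on the log2 scale. HLA-C (0.54 ± 0.18, adjusted p = 0.025) and HLA-E (0.54 ± 0.20, adjusted p = 0.044) were close to the threshold, and both lost their call when any of 4 libraries was left out (both Rosens libraries and wt 2D replicates A and B), HLA-E also without wt 2D replicate C. Without Rosens replicate B, HLA-F lost its call as well, which left 3 genes called (7.76% of all genes rose and 8.65% fell). Without the 3 libraries that stood apart, 7 genes rose (24.5% rose and 24.8% fell). B2M (0.02 ± 0.16, adjusted p = 0.95), TAP2 (-0.08 ± 0.12, adjusted p = 0.67) and NLRC5 (0.40 ± 0.16, adjusted p = 0.062) did not pass. None of the 9 fell at an unadjusted p under 0.05, nor by DESeq2 or limma-voom.

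Wt tumorspheres set against these adherent cells in the same medium showed 5 genes that rose and 1 that fell, where 32.8% of all genes rose and 30% fell. B2M rose by 1.20 ± 0.16, adjusted p = 6.2e-06, HLA-F by 1.66 ± 0.25, adjusted p = 1.7e-05, HLA-B by 1.24 ± 0.23, adjusted p = 0.00017, HLA-C by 1.06 ± 0.18, adjusted p = 8.1e-05 and HLA-E by 0.55 ± 0.20, adjusted p = 0.024. TAP2 fell (-0.44 ± 0.12, adjusted p = 0.0051). TAP1 (-0.19 ± 0.15, adjusted p = 0.28), TAPBP (0.34 ± 0.19, adjusted p = 0.13) and NLRC5 (0.35 ± 0.16, adjusted p = 0.063) did not pass. In log2 terms B2M differed by 0.02 between Rosens and wt 2D cells and by 1.20 between wt tumorspheres and Rosens cells. The TAP1 differences were 0.81 and -0.19. Rosens cells had the tumorsphere medium only from 50% to 80% confluency, and tumorspheres through a primary and a secondary round of 6 days. Culture format and time in this medium therefore cannot be told apart here. The pair of comparisons shares the Rosens libraries, and the RNA kit for the Rosens group is not named separately in the labels. Without wt 3D replicate C, HLA-E lost its call (0.19), TAP1 fell (-0.37) and NLRC5 rose (0.53), so that 5 rose and 2 fell (32.8% of all genes rose and 29.7% fell). Without all 3 libraries that stood apart 6 rose and 2 fell (36.4% and 34.3%).

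Next, the pools were set against wt within each culture format. In tumorspheres labelled KOs against wt, TAP2 (0.39 ± 0.11, adjusted p = 0.0069) and NLRC5 (0.48 ± 0.14, adjusted p = 0.0072) rose and none of the 9 genes fell, where 27.8% of all genes rose and 28.5% fell. The count of 2 in 9 is near that background. The other 7 genes had log2 differences of -0.20 to 0.29, with SE of 0.13 to 0.20. In KOd tumorspheres against wt, 0 of the 9 genes passed in either direction by edgeR, DESeq2 or limma-voom, 0 had an unadjusted p under 0.05, and 16.5% of all genes rose and 17.5% fell. The KOd differences ran from -0.20 ± 0.17 for TAPBP to 0.34 ± 0.20 for HLA-B.

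Both tumorsphere comparisons changed without wt 3D replicate C, the wt library with the highest heavy-chain levels. Without it HLA-B, HLA-C, HLA-E and HLA-F rose in KOd tumorspheres (0.68, 0.40, 0.34 and 0.53), where 16.4% of all genes rose and 16.6% fell. In labelled KOs tumorspheres HLA-B, HLA-C and HLA-F then rose (0.61, 0.30 and 0.57, where 25.4% of all genes rose and 27.6% fell), and TAP2 (0.26) and NLRC5 (0.29) no longer passed. Without all 3 libraries that stood apart, 7 genes rose and none fell in labelled KOs (33.5% and 31.4% of all genes), and 5 rose and none fell in KOd (21.9% and 23.4%). Whether replicate C differs for a technical reason was not tested.

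In 2D, HLA-E (0.51 ± 0.18, adjusted p = 0.022) and TAP1 (0.53 ± 0.13, adjusted p = 0.0026) rose and TAP2 fell (-0.49 ± 0.11, adjusted p = 0.0013) in labelled KOs against wt, where 27.7% of all genes rose and 25.5% fell, so these counts too are near the background. The HLA-E call was lost without labelled KOs 2D replicate A (0.38) and without wt 2D replicate A (0.50) or C (0.51). TAPBP was -0.19 ± 0.17, adjusted p = 0.37, and without labelled KOs 2D replicate A it fell (-0.47). In KOd 2D cells 0 of the 9 genes passed in either direction by edgeR, DESeq2 or limma-voom and 0 had an unadjusted p under 0.05, while 22.1% of all genes rose and 22.5% fell. Without the 3 libraries that stood apart, 3 rose and 2 fell in labelled KOs (31.8% and 31.9% of all genes), and in KOd HLA-B rose (0.20) while TAPBP (-0.21) and NLRC5 (-0.30) fell (29.9% and 29.8%). With all libraries the most distant KOd values were -0.30 ± 0.14 for NLRC5 and -0.21 ± 0.17 for TAPBP.

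**Figure D5:**
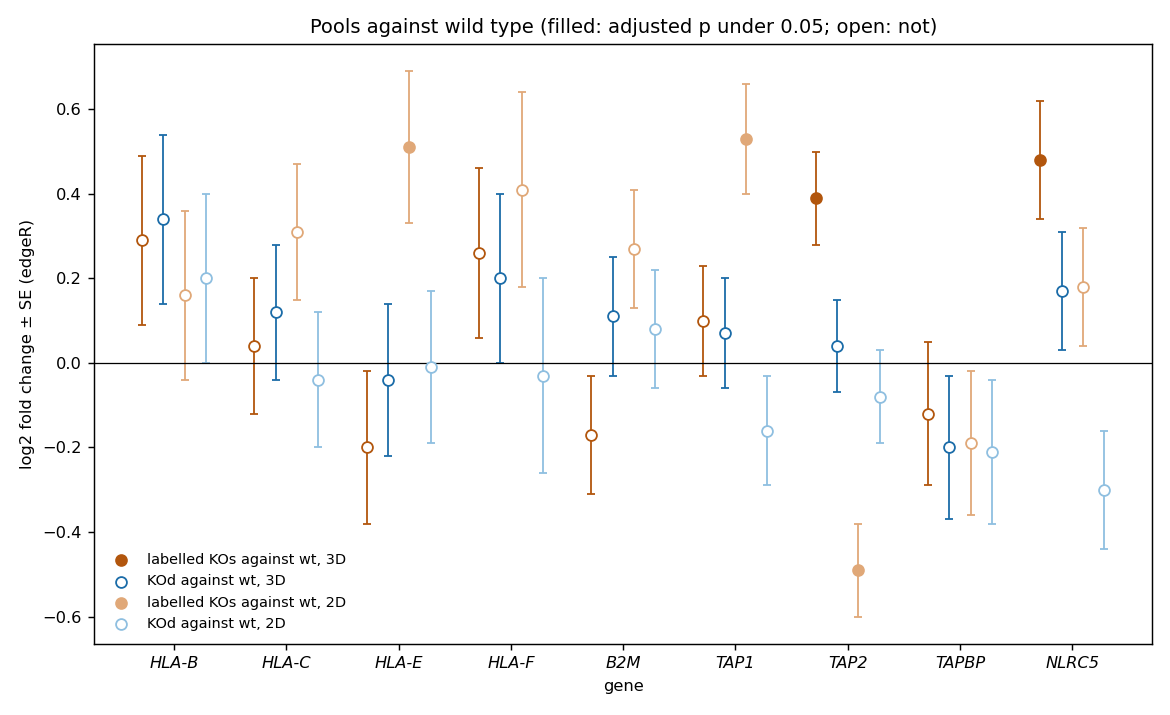
Log2 fold change (edgeR) ± approximate SE of each gene for KOd and labelled KOs, each set against wt of its own culture format. Filled points have an adjusted p under 0.05. The 5 filled points all belong to the libraries labelled KOs: TAP2 and NLRC5 in 3D, and HLA-E, TAP1 and TAP2 in 2D, with TAP2 at 0.39 in 3D and -0.49 in 2D.

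The pools were also compared with each other directly. In 2D, TAP2 rose in KOd against labelled KOs (0.41 ± 0.11, adjusted p = 0.0041) and TAP1 (-0.69 ± 0.13, adjusted p = 0.00022), HLA-E (-0.52 ± 0.18, adjusted p = 0.017) and NLRC5 (-0.47 ± 0.14, adjusted p = 0.008) fell, where 28.8% of all genes rose and 30.7% fell. In 3D, TAP2 fell in KOd against labelled KOs (-0.34 ± 0.11, adjusted p = 0.017) and no other gene of the 9 passed, where 23.9% of all genes rose and 23.3% fell. These counts, 1 up and 3 down in 2D and 1 down in 3D, are near or below the background, so they show nothing particular to the 9 genes. That TAP2 call was lost without KOd 3D replicate A (-0.30) or B (-0.29) or labelled KOs 3D replicate C (-0.33). Leaving out the 3 libraries that stood apart gave 3 that rose and 3 that fell in 2D (35.9% and 34% of all genes) and 1 and 2 in 3D (29.4% and 31.3%). Depth and ribosomal RNA share differ between these pools as given above, and their part in these differences was not tested.

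The change with culture was compared between each pool and wt by an interaction term. For labelled KOs the TAP2 response was higher by 0.88 ± 0.16, adjusted p = 0.00038 on the log2 scale and the HLA-E response was lower (-0.71 ± 0.25, adjusted p = 0.033), where 17.9% of all genes had a higher and 19% a lower response. The HLA-E call was lost without any single labelled KOs 3D library or any single wt 2D library, and the difference was -0.20 and did not pass without the 3 libraries that stood apart. TAP2 kept a difference of 0.65 there, and 3 genes in all had a higher and none a lower response (24.3% and 21.8% of all genes). For KOd none of the 9 genes passed in either direction by edgeR, DESeq2 or limma-voom, with 1 (NLRC5, 0.47 ± 0.20) at an unadjusted p under 0.05, where 14.4% of all genes had a higher and 14.7% a lower response. Without the 3 libraries 4 genes had a higher response in KOd: HLA-B (0.43), HLA-C (0.39), TAP1 (0.36) and HLA-E (0.29), and none had a lower one (20.7% and 21.3% of all genes).

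Genes that work before and around the transporter were followed as further lists. All 5 genes of the immunoproteasome and its PA28 activator, which cut peptides suited to class I, rose in wt tumorspheres against wt 2D: PSMB10 by 1.13 ± 0.11, PSMB9 by 0.83 ± 0.16, PSME1 by 0.50 ± 0.12 and PSME2 by 0.30 ± 0.09 (log2, adjusted p = 7.5e-08, 0.00016, 0.0016 and 0.0087). Over all genes 33.3% rose in that comparison. In labelled KOs and in KOd 2 of the 5 rose, PSMB10 and PSMB9, which is near the share of all genes (32.9% and 35.2%). In KOd tumorspheres against wt tumorspheres 4 of the 5 fell, where 17.5% of all genes fell: PSME2 (-0.45 ± 0.09), PSME1 (-0.53 ± 0.12), PSMB9 (-0.56 ± 0.15) and PSMB10 (-0.28 ± 0.10). The constitutive catalytic subunits PSMB6 (-0.67 ± 0.11), PSMB7 (-0.70 ± 0.12) and PSMB5 (-0.51 ± 0.12), which the immunoproteasome subunits replace, all fell in wt tumorspheres, where 30.4% of all genes fell. All 3 fell in labelled KOs too, and 2 of the 3 in KOd, beside 32.1% and 31.2% of all genes. PSMB9 stood at 0.355, 0.420 and 0.799 times PSMB6 per base of length in labelled KOs, KOd and wt tumorspheres, against 0.120, 0.226 and 0.282 times in 2D. In the same order PSMB10 stood at 0.174, 0.315 and 0.385 times PSMB7, against 0.0667, 0.115 and 0.108 times. PSMB8 stood at 0.550, 0.637 and 0.577 times PSMB5, against 0.299, 0.573 and 0.330 times. In labelled KOs PSMB8 itself did not pass (-0.0 ± 0.10, adjusted p = 0.97) and PSMB5 fell (-0.95 ± 0.12), so the higher ratio there went with lower PSMB5. For PSMB8 the KOd libraries overlapped (0.616 to 0.6765 in 3D and 0.480 to 0.656 in 2D), and none of these ratios was tested.

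Of 8 further loading partners, 3 rose and 4 fell in wt tumorspheres, near the 33.3% and 30.4% of all genes. The tapasin-related editor TAPBPL (2.26 ± 0.15) and the peptide-trimming aminopeptidases ERAP1 (0.75 ± 0.10) and ERAP2 (0.76 ± 0.12) rose, while the glycoprotein folding sensor UGGT1 was among those that fell (-0.53 ± 0.10). In KOd 4 rose, among them TAPBPL (1.30), ERAP2 (0.75) and ERAP1 (0.47), and 3 fell, among them the chaperone CALR (-0.49), beside 35.2% and 31.2% of all genes. In labelled KOs 3 rose, among them TAPBPL (1.94) and ERAP1 (0.96), and 4 fell, among them CALR (-0.65) and the export receptor BCAP31 (-0.53), beside 32.9% and 32.1% of all genes. Of 11 other class I and class I-like genes, 5 rose and 3 fell in wt tumorspheres, again near the background of 33.3% and 30.4%. The non-classical heavy chain HLA-G rose (1.27 ± 0.16), and the stress ligand MICB fell (-1.13 ± 0.14). Among 8 factors of the class I promoter module, RFX5 rose (0.99 ± 0.15) and NFYA fell (-0.27 ± 0.11) in wt tumorspheres, and 6 did not pass, so both counts are below those shares. In KOd 2 rose and 6 fell (35.2% and 31.2% of all genes), with CREB1 (-0.61 ± 0.07), RFX5 (1.10 ± 0.15), ATF1 (-0.75 ± 0.12) and RFXANK (-0.70 ± 0.14) the furthest past the test. In labelled KOs 1 rose, RFX5 (0.64 ± 0.14), and 3 fell, beside 32.9% and 32.1% of all genes.

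The interferon and NF-kB path was measured through 18 tested genes of a list of 20. In wt tumorspheres 14 rose and 1 fell, where 33.3% of all genes rose and 30.4% fell, and the median log2 fold change was 1.00 beside 0.04 for all genes. The interferon-gamma receptor chains IFNGR2 (1.09 ± 0.07) and IFNGR1 (1.26 ± 0.13) and the transcription factor IRF1 (1.53 ± 0.20) were among those that rose. In labelled KOs 15 rose and 1 fell (32.9% and 32.1% of all genes), and in KOd 13 rose and 3 fell (35.2% and 31.2%). IRF1, which binds the interferon-response element, was 49.2 ± 0.514 CPM in labelled KOs, 39.5 ± 14.3 in KOd and 57.3 ± 16.1 in wt tumorspheres, against 25.2 ± 4.04, 57.7 ± 1.18 and 19.8 ± 0.879 CPM in the same populations in 2D (mean ± SD, n = 3 each). In KOd tumorspheres against KOd 2D it fell (-0.55 ± 0.20, adjusted p = 0.020). The part of IRF1 in the class I levels was not tested. IFNG and IFNB1, the genes of interferon gamma and beta, had 0 reads in all 20 libraries, and IFNL1 had at most 14 in any library.

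EZH2, the catalytic subunit of the polycomb complex PRC2 that is known to silence class I genes in some tumours, was followed with its partners EED and SUZ12. All 3 fell in wt tumorspheres, where 30.4% of all genes fell. EZH2 averaged 33.2 ± 1.95 CPM in labelled KOs, 16.3 ± 1.43 in KOd and 17.7 ± 4.87 in wt tumorspheres, against 36.1 ± 5.33, 86.8 ± 2.41 and 48.2 ± 4.48 CPM in 2D (n = 3 each). In labelled KOs only SUZ12 passed (-0.20 ± 0.08), and EZH2 did not (-0.12 ± 0.15), where 32.1% of all genes fell. In KOd EZH2 (-2.41 ± 0.16) and SUZ12 (-0.32 ± 0.08) fell and EED did not pass (0.01 ± 0.12), where 31.2% of all genes fell. The part of these genes in the class I levels was not tested.

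Markers of white blood cells were looked at because such cells carry much class I mRNA. Of 12 markers, 5 were tested and 3 rose in wt tumorspheres, ITGAX, ITGAM and CSF1R, where 33.3% of all genes rose. In labelled KOs 3 rose and 1 fell (32.9% and 32.1% of all genes), and in KOd 3 rose and 1 fell (35.2% and 31.2%). Their summed level was 58.3 to 65.6 CPM in labelled KOs, 14.6 to 25.4 in KOd and 6.75 to 8.05 in wt tumorspheres, against 2.75 to 4.25, 2.30 to 3.31 and 1.87 to 3.06 CPM in 2D, and 2.52 to 2.57 in the Rosens group. Most of it was ITGAX in the pools' tumorspheres, at 53.4 CPM in labelled KOs and 14.5 CPM in KOd. The pan-leukocyte marker PTPRC averaged 0.257, 2.23 and 2.02 CPM in labelled KOs, KOd and wt tumorspheres, against 1.29, 1.41 and 1.32 CPM in 2D. MS4A1 and NKG7 had 0 reads in all libraries, and CD3D had at most 7. The part that cells carrying these markers have in the class I levels was not tested.

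Ordered by mean level, HLA-B, HLA-C and HLA-F were higher in all 3 tumorsphere groups than in the Rosens group, with no overlap at that step, and overlapped among the tumorsphere groups. HLA-B and HLA-F in the Rosens group did not overlap with the next lower group either. B2M had its step between the 3 tumorsphere groups and the 4 adherent groups, and neighbours on either side overlapped. TAP1 was highest in the Rosens group and TAP2 was highest in wt 2D. For TAPBP the Rosens group came next after the tumorsphere groups and stood clear of the 2D groups, and for NLRC5 the labelled KOs tumorspheres stood clear above KOd tumorspheres.

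Likeness of pattern was measured as the root mean square difference between centred log2 CPM means of the 7 groups, over the 12128 genes whose mean log2 CPM reached 1. Among the 9 genes HLA-B and HLA-F were nearest to each other (0.202), and TAP2 was farthest from its nearest, TAP1 (0.491). The tested gene nearest to HLA-B was NOL4L (0.119). HLA-C was followed by the class I pseudogenes HLA-L (0.130) and HLA-H (0.139) and by EVI2B (0.140), and reads shared with these pseudogenes cannot be told apart here. The nearest genes outside the 9 were SLC48A1 for HLA-E (0.089), RBM47 for HLA-F (0.205), EXOC7 for B2M (0.099) and TMEM102 for TAP1 (0.082). They were ZUP1 for TAP2 (0.089), ABCA2 for TAPBP (0.183) and SLC39A11 for NLRC5 (0.146).

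Class I heavy chains resemble each other and their pseudogenes, and how reads that fit several of them were counted is not given in the sources used here, so levels of single heavy chains are uncertain. The strand setting of the counting is not given either. HLA-F overlaps HLA-F-AS1 (1933 reads over all libraries, beside 13665 for HLA-F), TAP1 overlaps PSMB8-AS1 (3882 beside 62600) and TAPBP overlaps RGL2 (25766 beside 111127).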

How the data were processed

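Poly(A) RNA from 20 libraries of SUM159PT cells was sequenced from stranded libraries (TruSeq), per the labels' protocols. The authors deposited whole-number read counts per Entrez gene together with a gene length in bases; STAR and hg38 are named in the submitters' processing notes, and the counting tool and its strand setting are not given in the sources used here. Library totals were 26396964 to 43744817 reads. Replicate libraries of a group differed by at least 3.7 in chi-square per gene, so none was treated as a duplicate.

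From these counts, edgeR 4.0.16 (R 4.3.3) was run with TMM scaling, its filter on low counts and 1 coefficient per group over all 20 libraries, which left 16323 genes and 13 residual degrees of freedom (common biological coefficient of variation 0.143). Quasi-likelihood tests were two-sided, with Benjamini-Hochberg adjustment over all genes tested and a threshold of 0.05; log2 CPM used a prior count of 2. The SE beside a log2 fold change is approximate. It was computed as the absolute log2 fold change divided by the square root of the quasi-likelihood F statistic. RPKM was computed from the deposited lengths. Alternatives used DESeq2 1.42.0, limma-voom (limma 3.58.1), other scalings and filters, the compared groups alone, a replicate block, counts without ribosomal RNA genes, a threshold of 0.01, and leaving out libraries. The script was tested on simulated counts.

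The 9 genes and the further lists were chosen with earlier results of these data known. Named list genes are the up to 4 with the smallest adjusted p in the comparison described, unless stated otherwise. Some genes of these lists are not reported here by name. Same-lettered libraries of wt 3D and KOd 3D deviated together (r = 0.210, 0.218 and 0.342 across genes), although no label pairs them. Promoter windows are RefSeq's on GRCh38.p14, and gene positions come from the same release.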

Additional observations from a re-analysis of the deposited data

Results flagged for a closer look

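The change of TAP2 with tumorsphere culture differed between labelled KOs and wt cells by 0.88 on the log2 scale (interaction term, edgeR adjusted p = 0.00038), with a rise in labelled KOs and a fall in wt. All 3 labelled KOs tumorsphere libraries lay above, and all 3 wt tumorsphere libraries below, the 2D libraries of their own population. The difference was positive and past the threshold in each alternative run.

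For HLA-E the same interaction was -0.71 (adjusted p = 0.033), with a smaller difference between culture formats in labelled KOs. Its value ran from -0.89 to -0.20 over the alternatives, and it passed the threshold in only some of them.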

How the results depend on the processing

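The counts of genes called in wt and KOd tumorspheres against 2D were 8 and 1 in every alternative that leaves out 1 library. Over single libraries left out, genes that rose numbered 7 to 8 in labelled KOs tumorspheres against 2D, 3 to 5 with the medium, 4 to 5 in wt tumorspheres against that medium (1 to 2 fell), 1 to 2 in labelled KOs against wt in 2D (1 to 2 fell), 2 to 3 in labelled KOs against wt in 3D and 0 to 4 in KOd against wt in 3D. In KOd against labelled KOs, 2 to 4 fell in 2D and 0 to 1 in 3D; in the culture response, 0 to 2 were lower in labelled KOs and 0 to 1 higher in KOd. At a threshold of 0.01, labelled KOs against wt in 2D had 1 rise, and KOd against labelled KOs in 3D and the labelled KOs response had 0 lower. Library totals alone, which moved the median of all genes by up to 0.24, gave 4 rises in labelled KOs and 1 in KOd against wt in 3D, 1 fall in KOd against labelled KOs in 2D and 0 lower in the labelled KOs response. With the compared groups alone 2 genes fell in KOd against wt in 2D, 2 rose and 2 fell in KOd against labelled KOs in 3D, and 0 were lower in the labelled KOs response, which had 3 lower by DESeq2. With a replicate block this response had 2 lower (TAP1 added); a block fitted in wt 3D and KOd 3D alone still called 0 genes. Without the 3 libraries that stood apart, chosen after seeing the data, against wt 2 fell in labelled KOs 2D, 1 rose and 2 fell in KOd 2D, 7 rose in labelled KOs 3D and 5 in KOd 3D; 2 fell in wt tumorspheres against the medium; in KOd against labelled KOs 3 rose in 2D and 1 rose and 2 fell in 3D; 3 were higher and 0 lower in the labelled KOs response and 4 higher in the KOd response. HLA-E then turned to 0.18 in labelled KOs and 0.29 in KOd against wt in 3D (in KOd -0.21 to 0.34 over single libraries left out, 0.34 without wt 3D replicate C) and to 0.29 in the KOd response, and TAPBP to 0.27 in KOd against labelled KOs in 2D. The cause was not tested. Of 2088 single-gene alternatives, 1982 kept their call (rose, fell or not passed). Among these, values that did not pass could change sign, such as HLA-C in KOd against wt in 2D (-0.12 to 0.08). HLA-F in wt 2D rests on as few as 110 reads.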

Other observations

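Genes of class II presentation, which shows extracellular peptides to CD4+ T cells, were also higher in tumorspheres: 9 of 9 rose in labelled KOs, 9 of 9 in KOd and 7 of 9 in wt against 2D, where 32.9%, 35.2% and 33.3% of all genes rose. The class II transactivator CIITA averaged 3.22, 5.21 and 2.22 CPM in labelled KOs, KOd and wt tumorspheres, against 0.106, 0.195 and 0.0253 CPM in 2D. The invariant chain CD74 averaged 20.6 ± 0.751 CPM in labelled KOs, 80.9 ± 48.5 in KOd and 5.59 ± 3.53 in wt tumorspheres (SD, n = 3 each), while no 2D library held more than 10 of its reads. HLA-DRA averaged 2.50, 10.9 and 1.27 CPM in labelled KOs, KOd and wt tumorspheres and had 0 reads in wt 2D. In KOd tumorspheres against wt tumorspheres 7 of these 9 genes rose and none fell, where 16.5% of all genes rose and 17.5% fell. These calls were not checked without wt 3D replicate C.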
